A study of Homo sapiens with 10 samples.

Results

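Semaphorins and plexin C1 were followed in T47D human breast cancer cells that carry different forms of the progesterone receptor isoform PR-A. The genes are SEMA3A, SEMA3B, SEMA3C, SEMA3F, SEMA4D, SEMA5A and PLXNC1, and every probe set annotated with only that gene symbol was taken. This gave 9 of the 16376 probe sets in the table used here, and 7 of its 8904 genes. They make up 9 of the 18 probe sets and 7 of the 14 genes that the table holds for all semaphorins and plexins. The genes were chosen around the fall of SEMA3C after R5020, so the R5020 responses of all 9 probe sets, and the difference of those responses between the cell lines, are given as a description with no p-value. The arrays hold 5 groups of 2: WT PR-A cells with 10 nM R5020 for 24 h, WT PR-A cells with vehicle, PR-A K388R cells with the same R5020 treatment, PR-A K388R cells with vehicle, and T47D-Y cells with vehicle. R5020 is a synthetic progestin, and vehicle is ethanol. T47D-Y cells have no progesterone receptor, and both PR-A lines were made from them by stable transfection with an expression vector. In PR-A K388R the lysine that takes the SUMO protein is replaced by arginine. Whether a PR-A line is 1 clone is not given in the sources used here, and nothing says that replicates came from separate cultures, so p-values measure the spread between arrays, which may be technical. RNA came from whole cultures, so fewer cells with a transcript and less of it per cell cannot be told apart.

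Semaphorins are secreted or membrane-bound guidance cues, first known for steering axons and later for acting on blood vessels, immune cells and tumor cells. The class 3 semaphorins (SEMA3A, SEMA3B, SEMA3C and SEMA3F here) are secreted and mostly bind a neuropilin, NRP1 or NRP2, which signals through a class A plexin or PLXND1. SEMA4D is a transmembrane ligand of PLXNB1, SEMA5A is a transmembrane semaphorin with thrombospondin repeats, and PLXNC1 is the receptor of SEMA7A. Plexins act inside the cell on small GTPases and on the cytoskeleton.

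Probe set values are log2 signals, so 1 unit is a factor of 2. Array medians lay between 4.59 and 4.69, lower quartiles between 3.28 and 3.39 and upper quartiles between 6.93 and 7.07. Pearson's r over all probe sets was 0.996 to 0.997 within groups and 0.977 to 0.993 between groups. Of 8 measured luminal epithelial markers, 7 (XBP1, CDH1, KRT18, KRT19, EPCAM, TFF3 and ESR1) were above the array median on every array, and the list averaged 9.97 to 10.8 per array, against 3.98 to 4.20 for 3 leukocyte and 3.87 to 4.11 for 4 endothelial markers, of which CD3E and PECAM1 were above the median on every array. The 3 measured myoepithelial or basal markers averaged 5.57 to 6.13 (ACTA2 and MYH11 above the median on every array), the 6 fibroblast markers 4.58 to 5.11 (COL1A1, DCN and COL1A2 above) and the 2 neuronal markers 6.78 to 7.07 (TUBB3 above). A probe set was called at a Benjamini-Hochberg adjusted p under 0.05 over all probe sets and a difference of at least 1.5-fold, in a limma fit of all 10 arrays.

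Start sites of SEMA3C and SEMA3F are shown first, because these members had the most negative R5020 responses and the progesterone receptor is a DNA-binding factor. RefSeq (GRCh38.p14) gave 14 windows for 6 of the 7 genes, each running from 250 bases before to 50 bases after a start, and without SEMA3A. Printed are both windows of SEMA3C and the first of SEMA3F, in the direction of the gene. Capitals mark the GC box GGGCGG on either strand, where matches may overlap one another; the progesterone response element core AGAACA was searched on both strands too and had no match in them.
SEMA3C, chr7:80919002-80919301, minus strand: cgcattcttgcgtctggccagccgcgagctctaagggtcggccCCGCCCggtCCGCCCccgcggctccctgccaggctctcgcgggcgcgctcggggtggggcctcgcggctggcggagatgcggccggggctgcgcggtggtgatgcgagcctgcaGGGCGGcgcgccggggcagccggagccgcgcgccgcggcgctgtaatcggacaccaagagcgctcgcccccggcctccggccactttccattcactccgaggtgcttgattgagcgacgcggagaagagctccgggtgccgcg
SEMA3C, chr7:80922340-80922639, minus strand: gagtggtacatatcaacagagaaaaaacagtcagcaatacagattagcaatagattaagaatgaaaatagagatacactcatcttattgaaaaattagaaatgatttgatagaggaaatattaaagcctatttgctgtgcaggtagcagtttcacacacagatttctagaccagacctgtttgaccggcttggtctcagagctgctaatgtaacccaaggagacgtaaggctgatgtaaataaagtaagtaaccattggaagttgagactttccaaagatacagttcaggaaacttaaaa
SEMA3F, chr3:50154808-50155107, plus strand: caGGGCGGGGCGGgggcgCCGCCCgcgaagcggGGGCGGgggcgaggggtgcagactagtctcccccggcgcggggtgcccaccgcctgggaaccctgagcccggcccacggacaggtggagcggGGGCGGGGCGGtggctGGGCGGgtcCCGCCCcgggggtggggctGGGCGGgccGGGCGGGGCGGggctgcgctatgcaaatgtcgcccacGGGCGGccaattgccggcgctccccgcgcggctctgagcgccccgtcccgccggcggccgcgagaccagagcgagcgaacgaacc

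The first SEMA3C window was 75.7% G and C and held 3 GC boxes, whereas the second was 36% G and C and held 0. The SEMA3F window was 81.3% G and C and held 12 GC boxes. Over 35116 windows of this length the median was 58.7% G and C, and 45% held at least 1 GC box, as did 10 of the 14 windows of the members. Some windows of the same gene overlap, so the 14 are not separate promoters. AGAACA was in 0 of the 14 windows of the members, against 14.8% of all windows. The AP-1 motif TGANTCA was in 1 of the 14 (PLXNC1, 7.71% of all windows), and the estrogen response element core AGGTCA in 2 of the 14 (SEMA3F and SEMA5A, 13.8% of all windows). The forkhead motif TGTTTAC was in 0 of the 14 (3.42% of all windows), and the TATA box TATAAA in 0 of the 14 (11.5% of all windows). A letter match is not a binding site, and its absence says only that these letters are not in these windows.

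SEMA3C, a secreted class 3 semaphorin that binds both neuropilins, was the member with the widest range. It has 2 probe sets, called here the brighter and the dimmer by their mean signal. On the brighter probe set the signal was 8.76 and 8.84 in WT PR-A cells with R5020, against 10.96 and 11.31 in WT PR-A cells with vehicle. In PR-A K388R cells it was 11.05 and 10.98 with R5020, against 12.35 and 12.22 with vehicle, and in T47D-Y cells it was 11.27 and 11.03. The lowest arrays were thus both from R5020-treated WT PR-A cells and the highest both from vehicle-treated PR-A K388R cells, with the other 3 groups close together in between. The dimmer probe set gave 4.75 and 5.31 in WT PR-A cells with R5020, against 7.23 and 7.65 with vehicle. The mutant line gave 6.96 and 6.70 with R5020, against 8.61 and 8.24 with vehicle, and in T47D-Y cells 7.50 and 7.17. Neither treated group overlapped its vehicle group on either probe set, and over the 10 arrays the 2 probe sets had a Pearson's r of 0.982, as a description over arrays that share their groups. The extreme group means lay 11.2-fold (brighter) and 10.5-fold (dimmer) apart.

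**Figure D1:**
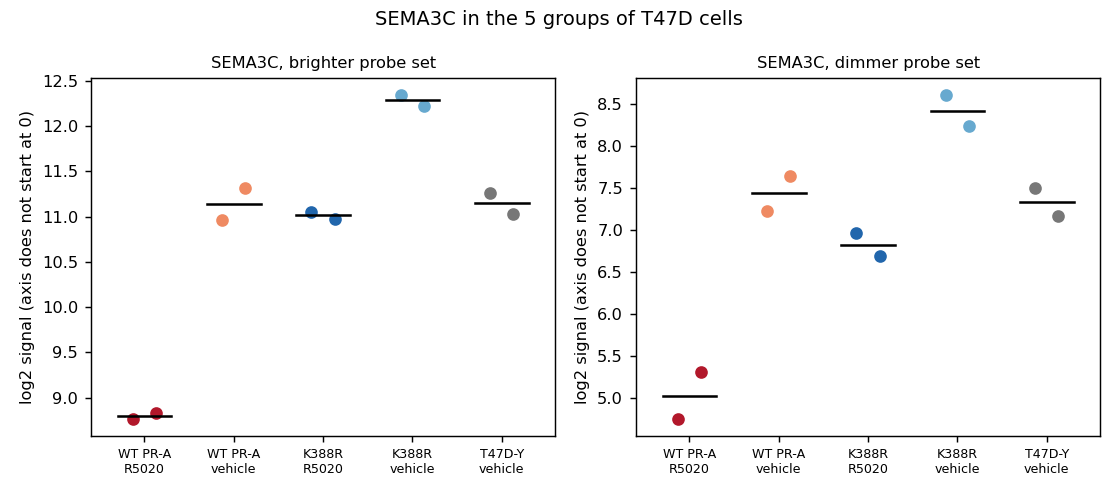
SEMA3C log2 signal on each array (points) with the mean of each group (bars), for the brighter (left) and dimmer (right) probe set. On the left the R5020-treated WT PR-A arrays, at 8.76 and 8.84, lie below all others, and the vehicle-treated PR-A K388R arrays, at 12.35 and 12.22, lie above all others.

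SEMA3C fell with R5020 in both PR-A lines. In WT PR-A cells the log2 difference was -2.34 (SE 0.15, 5.05-fold) on the brighter probe set and -2.41 (SE 0.23, 5.31-fold) on the dimmer. In PR-A K388R cells it was -1.27 (SE 0.15, 2.41-fold) and -1.59 (SE 0.23, 3.02-fold). The PR-A K388R response minus the WT PR-A response was 1.07 (SE 0.21) on the brighter probe set and 0.82 (SE 0.32) on the dimmer, so the fall was smaller in the mutant line on both. With 1 array left out, this difference ran from 0.85 (without WT PR-A vehicle replicate 2) to 1.29 (without WT PR-A vehicle replicate 1) on the brighter probe set. On the dimmer it ran from 0.46 (without WT PR-A R5020 replicate 1) to 1.17 (without WT PR-A R5020 replicate 2).

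The endpoints of the responses differed as well as their sizes. With R5020, SEMA3C in PR-A K388R cells (mean 11.01 on the brighter probe set) overlapped T47D-Y cells (11.15), whereas WT PR-A cells (8.80) stood at a difference of -2.35 from T47D-Y cells. On the dimmer probe set the R5020-treated PR-A K388R cells (6.83) lay below T47D-Y cells (7.33) without overlap, and the WT PR-A cells (5.03) stood at -2.30 from them. Ordered by group mean on the brighter probe set, PR-A K388R with vehicle came first, then T47D-Y, WT PR-A with vehicle and PR-A K388R with R5020, and then WT PR-A with R5020. The middle 3 of these overlapped with their neighbors, while the steps of 1.14 above them and 2.22 below them did not.

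Without ligand, SEMA3C was higher in PR-A K388R cells than in both other lines. Vehicle-treated arrays of the PR-A lines also enter the R5020 responses on which the genes were chosen, so the p-values of the vehicle comparisons are not independent of that choice. Against vehicle-treated WT PR-A cells the log2 difference was 1.15 (SE 0.15, 2.22-fold, adjusted p = 0.00100) on the brighter probe set and 0.98 (SE 0.23, 1.98-fold, adjusted p = 0.0227) on the dimmer. Against T47D-Y cells it was 1.14 (SE 0.15, 2.20-fold, adjusted p = 0.00266) and 1.09 (SE 0.23, 2.13-fold, adjusted p = 0.0285). Vehicle-treated WT PR-A cells did not differ detectably from T47D-Y cells, at -0.01 (95% interval -0.34 to 0.31, adjusted p = 0.983) and 0.11 (-0.41 to 0.62, adjusted p = 0.876). Both comparisons of PR-A K388R use the same vehicle arrays of that line and are not independent. The calls on the brighter probe set held without each single array. On the dimmer probe set the call against WT PR-A was lost without WT PR-A vehicle replicate 1 (0.72, adjusted p = 0.221) or PR-A K388R vehicle replicate 1 (0.75, 0.161), and that against T47D-Y when leaving out PR-A K388R vehicle replicate 1 (0.85, 0.153) or 2 (1.33, 0.0646) or T47D-Y replicate 1 (1.30, 0.0805) or 2 (0.88, 0.195).

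SEMA3F, which signals mainly through NRP2 and is known as a tumor suppressor, fell with R5020 in WT PR-A cells too. Its signal was 5.82 and 6.06 in WT PR-A cells with R5020, against 6.68 and 6.77 with vehicle. The PR-A K388R arrays had 6.14 and 6.25 with R5020, against 6.60 and 6.21 with vehicle, and in T47D-Y cells 7.12 and 7.09. The WT PR-A groups did not overlap, the PR-A K388R groups did, and T47D-Y cells were above all others. The R5020 response was -0.78 (SE 0.15, 1.72-fold) in WT PR-A cells and -0.21 (SE 0.15, 1.16-fold) in PR-A K388R cells, a difference of 0.57 (SE 0.21). With 1 array left out, the WT PR-A response ran from -0.93 to -0.63 and the difference from 0.33 (without PR-A K388R vehicle replicate 2) to 0.82 (without PR-A K388R vehicle replicate 1). These R5020 responses are a description, since the genes were chosen on these contrasts, and no call of them is read as a test. Without ligand, SEMA3F was lower in PR-A K388R than in T47D-Y cells by a log2 difference of -0.70 (SE 0.15, 1.62-fold, adjusted p = 0.0303), opposite to SEMA3C. This call was lost without any 1 of 5 arrays: PR-A K388R vehicle replicate 2 (-0.45, adjusted p = 0.226), T47D-Y replicate 1 (-0.68, 0.200) or 2 (-0.72, 0.141), or WT PR-A vehicle replicate 1 or 2 (-0.70, 0.0504 each). The other differences, -0.38 for WT PR-A against T47D-Y (adjusted p = 0.170) and -0.32 for PR-A K388R against WT PR-A (adjusted p = 0.237), were not called.

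The remaining 5 genes were not called in any of the vehicle comparisons. SEMA4D was among the brighter members, above the array's upper quartile on 8 of 10 arrays. Its signal was 7.55 and 7.62 in WT PR-A cells with R5020, against 7.09 and 7.27 with vehicle, a difference of 0.41 (SE 0.13) with no overlap. PR-A K388R cells had 7.07 and 7.12 with R5020, against 7.13 and 7.15 with vehicle, and in T47D-Y cells 6.98 and 6.66. With R5020, SEMA4D was thus higher on both WT PR-A arrays, where SEMA3C and SEMA3F were lower, but by less than 1.5-fold. SEMA5A lay between 5.66 and 6.16, with its lowest arrays, 5.69 and 5.66, in R5020-treated WT PR-A cells and its highest group mean, 6.08, in R5020-treated PR-A K388R cells.

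SEMA3A, the founding axon-repelling semaphorin, and SEMA3B, known as a tumor suppressor, were dim on the probe sets that carry their symbols alone. SEMA3A was below the array median on 10 of 10 arrays and SEMA3B on 9. A further SEMA3B probe set, left out because it is shared with MIR6872, lay between 5.58 and 5.93, below the median on 0 arrays. For SEMA3A the highest group means were those of WT PR-A cells, 4.41 and 4.37 with R5020 and 4.27 and 4.53 with vehicle, and the lowest those of T47D-Y cells, 3.98 and 3.95. The vehicle difference of 0.43 between WT PR-A and T47D-Y cells (SE 0.12, 1.35-fold) had an adjusted p of 0.0593, the smallest of any uncalled member in the 3 vehicle comparisons. SEMA3B was 4.56 and 4.66 in PR-A K388R cells with R5020, against 4.24 and 4.32 with vehicle, and between 4.16 and 4.44 in the other groups. PLXNC1 stayed within 3.44 to 3.72 on its brighter probe set and 2.62 to 3.09 on its dimmer, which was below the lower quartile on all 10 arrays. At the levels of SEMA3A, PLXNC1 and the SEMA3B probe set used here a difference may be hidden by background signal. The lack of a call therefore does not show that the transcript did not change.

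**Figure D2:**
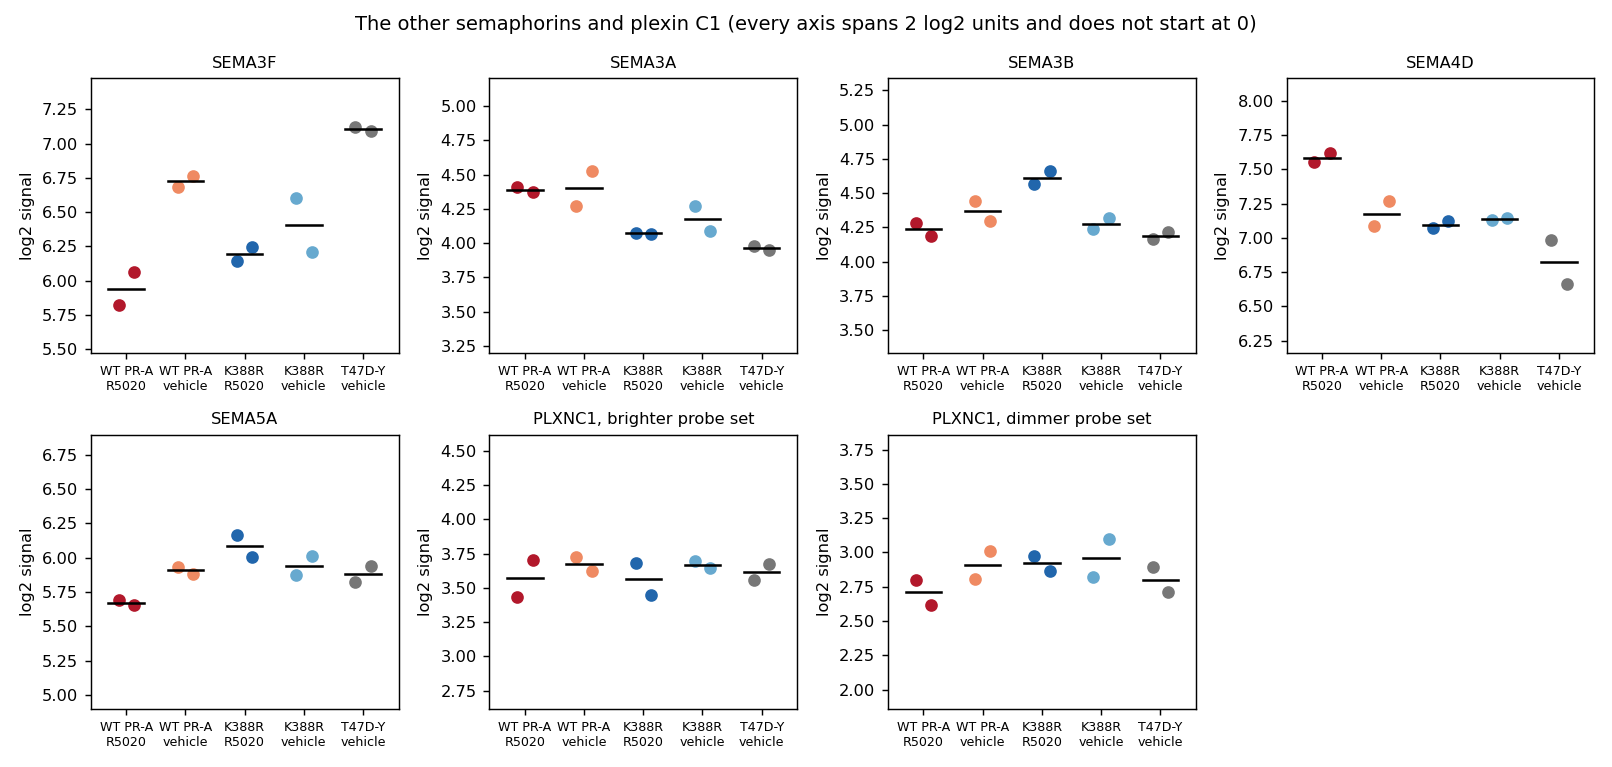
Log2 signal of SEMA3F, SEMA3A, SEMA3B, SEMA4D, SEMA5A and both PLXNC1 probe sets on each array (points), with group means (bars), every vertical axis spanning 2 log2 units. SEMA3F is lowest in R5020-treated WT PR-A cells (5.82 and 6.06) and highest in T47D-Y cells (7.12 and 7.09), whereas PLXNC1 on its brighter probe set stays between 3.44 and 3.72.

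Set side by side, the R5020 responses in WT PR-A cells were -2.34 and -2.41 for SEMA3C and -0.78 for SEMA3F, and between -0.24 and 0.41 for the other 6 probe sets. Thus 3 of 9 probe sets were called lower and 0 higher; among all probe sets 2.77% were called lower and 3.63% higher, or 3.47% and 4.4% of genes. In PR-A K388R cells the 7 probe sets other than those of SEMA3C lay between -0.21 and 0.34. There 2 of 9 were called lower and 0 higher, with 0.391% lower and 1.01% higher over all probe sets, or 0.416% and 1.25% of genes. For the difference of the responses, 1 of 9 was called higher and 0 lower, with 0.519% higher and 0.953% lower over all probe sets, or 0.719% and 1.16% of genes. That call, of the brighter SEMA3C probe set, was lost in 11 of 18 other settings, and the dimmer one was called in 0 of 18. With 1 array left out, the counts for the WT PR-A response, the PR-A K388R response and their difference ran from 2 to 3, from 1 to 2 and from 0 to 1. The genes were chosen on these contrasts, so nothing is read from these counts. The median response of the 9 probe sets was -0.20 with WT PR-A and -0.10 with the mutant, beside -0.01 and 0.00 over all probe sets.

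**Figure D3:**
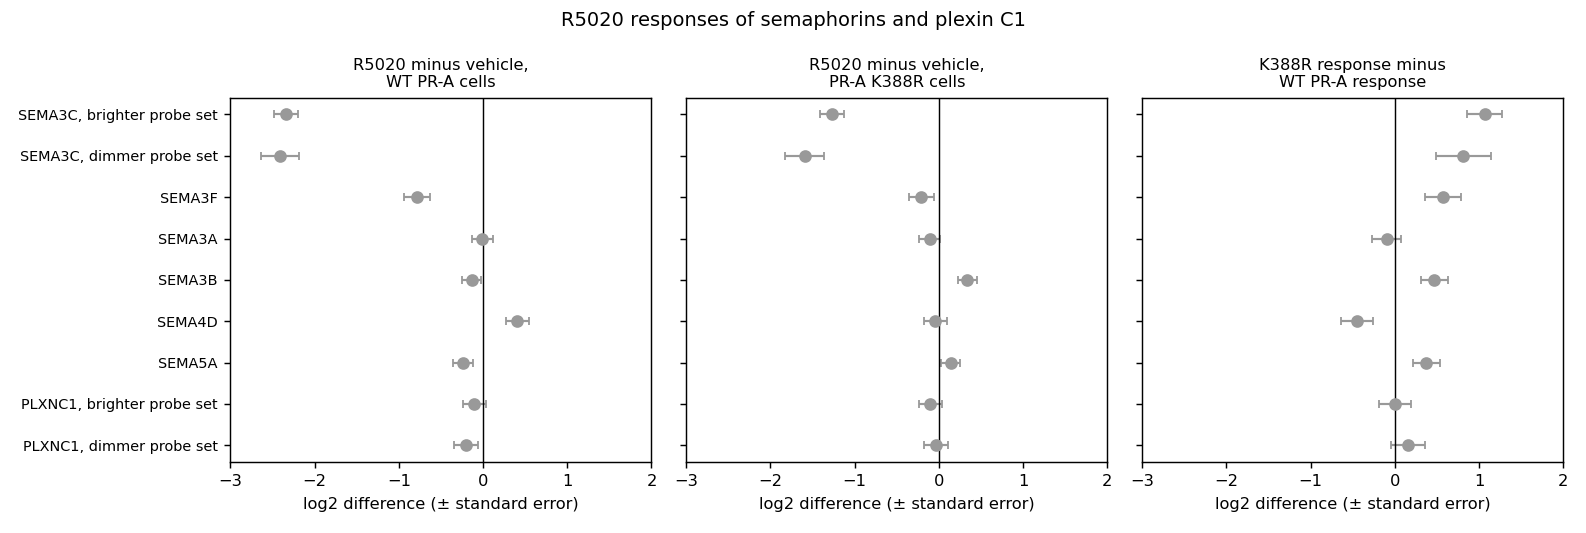
Log2 difference of R5020 minus vehicle for the 9 probe sets in WT PR-A cells (left) and PR-A K388R cells (middle), and the PR-A K388R response minus the WT PR-A response (right), with standard errors from the limma fit as bars. SEMA3C stands at -2.34 and -2.41 on the left and -1.27 and -1.59 in the middle.

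In the vehicle comparisons, 2 of 9 probe sets, both of SEMA3C, were called higher and 0 lower in PR-A K388R against WT PR-A cells. The background there was 2.71% higher and 4.72% lower over all probe sets, or 3.49% and 5.63% of genes. Against T47D-Y cells, 2 of 9 were called higher (SEMA3C) and 1 lower (SEMA3F) in PR-A K388R cells, with 1.06% higher and 2.3% lower over all probe sets, or 1.35% and 2.48% of genes. For WT PR-A against T47D-Y cells 0 of 9 were called in either direction. Among all probe sets 3.72% were called higher and 3.55% lower in that comparison, or 4.48% and 4.03% of genes. SEMA4D was higher without a call in both PR-A lines, at 0.36 for WT PR-A (adjusted p = 0.150) and 0.32 for PR-A K388R (adjusted p = 0.224) against the same T47D-Y arrays. Apart from SEMA3C and SEMA3F, the differences between PR-A K388R and WT PR-A cells lay between -0.22 (SEMA3A) and 0.05 (the dimmer PLXNC1 probe set).

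**Figure D4:**
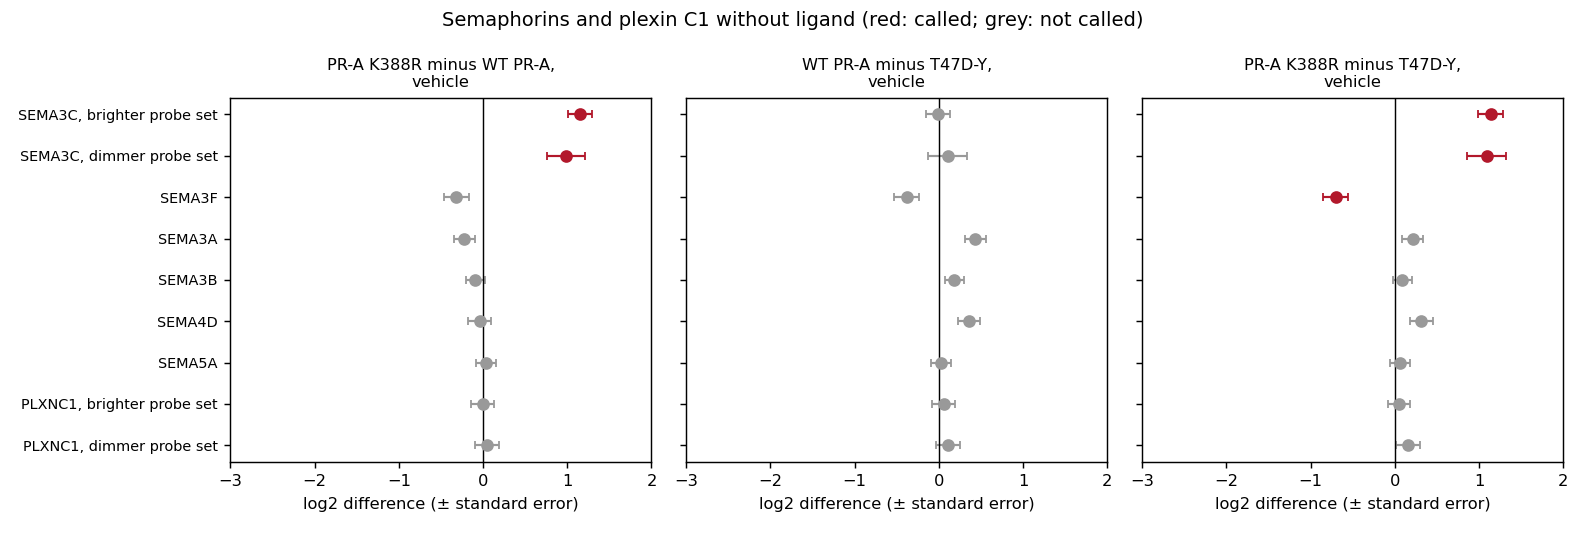
Log2 differences among the vehicle-treated groups for the 9 probe sets, as PR-A K388R minus WT PR-A (left), WT PR-A minus T47D-Y (middle) and PR-A K388R minus T47D-Y (right), with standard errors as bars. Red points were called. SEMA3C is at 1.15 and 0.98 on the left and at 1.14 and 1.09 on the right, and SEMA3F is at -0.70 on the right.

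Receptors that could receive these ligands were measured in part. NRP1, a co-receptor of SEMA3A and SEMA3C, was below the lower quartile on all 10 arrays (2.64 to 3.01), and NRP2, the co-receptor of SEMA3F, lay between 4.40 and 4.81 with 6 arrays below the array median. Neither was called in any comparison, nor were PLXNA1 (3.98 to 4.73), PLXNA4 (2.88 to 3.35), PLXNB3 (5.25 to 5.77) and PLXND1 (5.34 to 5.76). Each of these 6 was seen by 1 probe set. Other NRP1 probe sets were not analysed here, so its low value does not show that the transcript was absent. The other measured semaphorins, SEMA4G (4.99 to 5.28) and SEMA6A (3.61 to 4.07), were not called either.

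PLXNA3, a class A plexin used by SEMA3F, was the exception. On its brightest probe set it was 6.46 and 6.34 in vehicle-treated PR-A K388R cells, against 7.17 and 7.28 in T47D-Y cells, a log2 difference of -0.82 (SE 0.11, 1.77-fold, adjusted p = 0.00419). The call was lost without T47D-Y replicate 2 (-0.76, adjusted p = 0.0521). Of its other 2 probe sets, 1 was lower without a call (-0.49, adjusted p = 0.0604), and the dimmest was at 0.14 (adjusted p = 0.787). SEMA3F and the brightest PLXNA3 probe set were thus both highest in T47D-Y cells, where that probe set had 7.17 and 7.28 against 6.34 to 6.81 on the other arrays. The dimmest PLXNA3 probe set was not highest there, averaging 3.73 in T47D-Y cells and 3.89 in vehicle-treated WT PR-A cells.

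Around the ligands, 137 genes of guidance signaling in 8 lists were looked up and 77 were measured: co-receptors, plexin effectors, processing proteases, neuropilin-binding growth factors, slits and netrins, ephrins and their receptors, and the other semaphorins and plexins. With R5020 in WT PR-A cells 6 of the 77 rose and 2 fell (7.79% and 2.60%, beside 4.4% and 3.47% of all genes). Slits and netrins with their receptors and effectors gave 3 of 6, the ephrin list 2 of 17 higher and 1 lower, plexin effectors 1 of 26, and co-receptors 1 of 13 lower. The median over the 77 was -0.06, beside -0.02 over all genes. In PR-A K388R cells 3 of the 77 rose and 0 fell (3.90% rose, beside 1.25% higher and 0.416% lower of all genes; median 0.01 in the lists and over all genes). The lists share their arrays with every other gene and no list was tested as a set, so nothing particular to them is read from these shares.

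DPYSL2, the collapsin response mediator that links semaphorin signals to microtubules, had the smallest adjusted p of these genes for R5020 in WT PR-A cells. Its signal was 10.13 and 10.53 in WT PR-A cells with R5020, against 7.67 and 7.73 with vehicle. PR-A K388R cells had 9.73 and 9.76 with R5020, against 8.95 and 8.52 with vehicle, and in T47D-Y cells 9.71 and 9.65. It therefore rose by 2.63 (SE 0.17, 6.19-fold, adjusted p = 2.43e-05) in the WT line and by 1.01 (SE 0.17, 2.01-fold, adjusted p = 0.0212) in the mutant line, and the responses differed by -1.62 (SE 0.24, adjusted p = 0.0136). The call in PR-A K388R cells was lost without vehicle replicate 2 (0.74) or R5020 replicate 1 (1.03) or 2 (0.99) of that line, and the call on the difference without WT PR-A vehicle replicate 1 (-1.58) or 2 (-1.66) or PR-A K388R R5020 replicate 1 (-1.60) or 2 (-1.64). Without ligand DPYSL2 was lower than in T47D-Y cells in both PR-A lines, with -1.98 for WT PR-A (adjusted p = 9.66e-05) and -0.95 for PR-A K388R (adjusted p = 0.0143). Leaving out PR-A K388R vehicle replicate 2 (-0.68) or T47D-Y replicate 1 (-0.91) or 2 (-0.98) ended the PR-A K388R call.

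SRGAP1, a GTPase-activating protein of the Slit and Robo pathway, rose in WT PR-A cells by 1.49 (SE 0.17, adjusted p = 0.000415), with 6.23 and 6.33 with R5020 against 4.82 and 4.76 with vehicle. With the mutant its difference was -0.05 (adjusted p = 0.960), and the responses differed by -1.54 (SE 0.23, adjusted p = 0.0150), a call lost without WT PR-A vehicle replicate 1 (-1.58) or 2 (-1.50), PR-A K388R vehicle replicate 2 (-1.38) or PR-A K388R R5020 replicate 1 (-1.43). The ephrin EFNA4 rose by 0.93 (adjusted p = 0.000524) and the ephrin EFNB3 fell by 0.93 (adjusted p = 0.00176) in WT PR-A cells. With the mutant, EFNA4 was at 0.20 (adjusted p = 0.578) and EFNB3 at -0.39 (adjusted p = 0.268). Their responses differed between the lines by -0.73 (adjusted p = 0.0516) and 0.54 (adjusted p = 0.253), and neither difference was called. EFNA4 averaged 8.57 with R5020 in both lines, against 7.64 (WT PR-A) and 8.37 (PR-A K388R) with vehicle. Its difference of responses thus rests on the same vehicle arrays as its comparison between the vehicle-treated lines below. L1CAM, an adhesion molecule that partners NRP1 in the SEMA3A receptor, fell by 1.29 (SE 0.34, adjusted p = 0.0445), but its call was lost without any 1 array of those groups: WT PR-A vehicle replicate 1 (-0.89) or 2 (-1.69), or R5020 replicate 1 (-1.15) or 2 (-1.43). Its second probe set fell by 1.17 (adjusted p = 0.0147). In the mutant line L1CAM had a difference of -1.21 (SE 0.34, 2.31-fold, adjusted p = 0.159), and the responses differed by 0.08 (adjusted p = 0.981), neither of them called. The netrin receptor NEO1 rose by 0.73 in PR-A K388R cells (adjusted p = 0.0224), with the call lost without any 1 of the 4 arrays of that line (0.61 to 0.84). It also rose in WT PR-A cells, by 1.04 (2.06-fold, adjusted p = 0.000625), a call that held without each single array, and the responses differed by -0.31 (adjusted p = 0.561). ITGB1, the integrin chain through which SEMA7A signals, rose by 0.66 in PR-A K388R cells (adjusted p = 0.0338), with the call lost without any 1 array other than the R5020-treated WT PR-A arrays (0.55 to 0.77). In WT PR-A cells ITGB1 averaged 8.53 with R5020 and 8.59 with vehicle. The responses differed by 0.72 (adjusted p = 0.0895), which was not called.

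**Figure D5:**
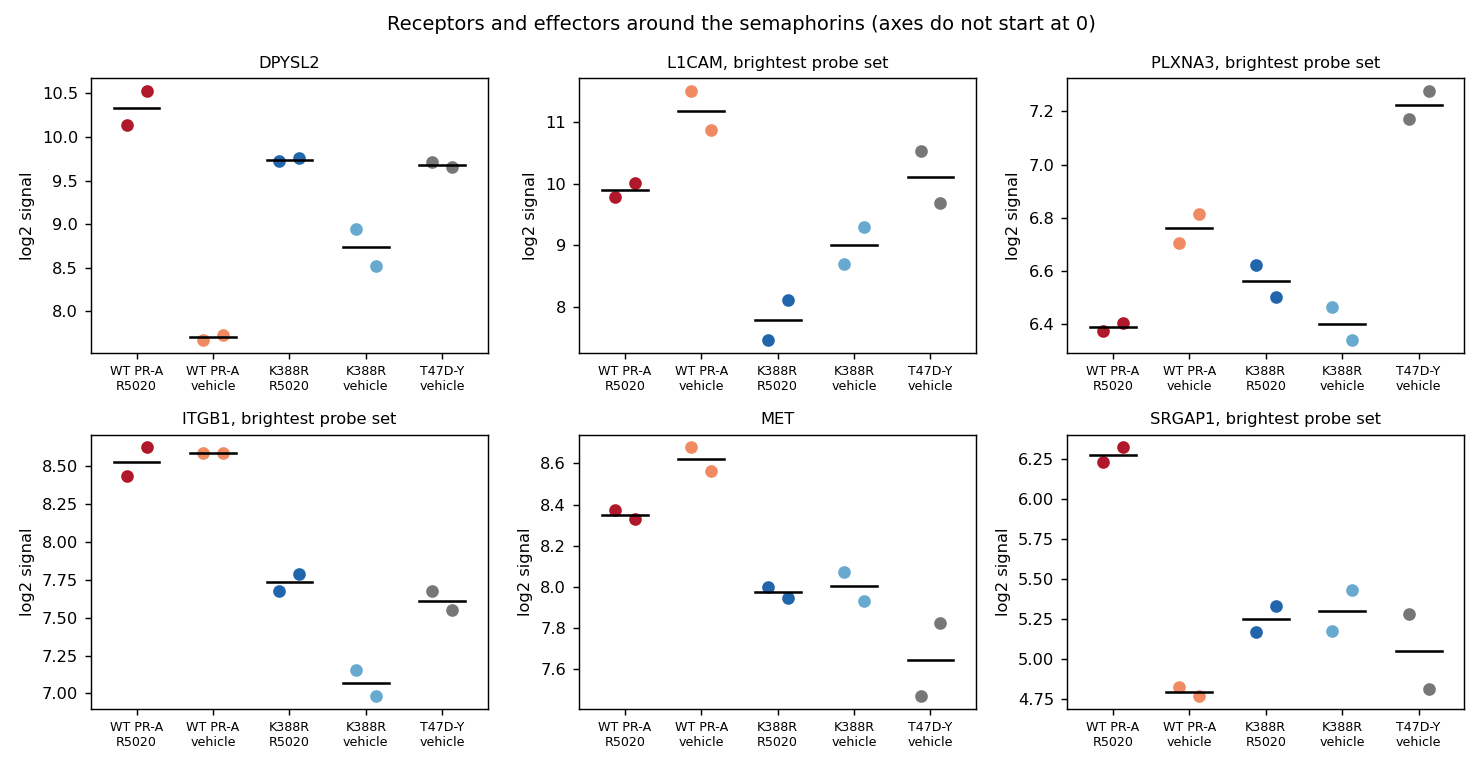
Log2 signal of DPYSL2, L1CAM, PLXNA3, ITGB1, MET and SRGAP1 on each array (points) with group means (bars). DPYSL2 is at 10.13 and 10.53 in WT PR-A cells with R5020, against 7.67 and 7.73 with vehicle. PLXNA3, drawn on its brightest probe set, is highest in T47D-Y cells (7.17 and 7.28).

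Between the vehicle-treated PR-A lines, the mutant line had 7 of the 77 genes higher and 5 lower (9.09% and 6.49%, beside 3.49% and 5.63% of all genes; median 0.07, beside 0.05 over all genes). The Eph receptor EPHA1 (1.26, adjusted p = 0.000598), the kinase CDK5, which phosphorylates DPYSL2 (0.84, adjusted p = 0.00161), and EFNA4 (0.73, adjusted p = 0.00220) were higher. Lower were ITGB1 (-1.52, adjusted p = 7.67e-05), the Eph receptor EPHB4 (-1.05, adjusted p = 0.000649) and L1CAM (-2.19, adjusted p = 0.00292), which had 8.69 and 9.30 in PR-A K388R cells, against 11.51 and 10.87 in WT PR-A cells. These 6 calls held without each single array. In WT PR-A against T47D-Y cells 3 of the 77 were higher and 2 lower (3.90% and 2.60%, beside 4.48% and 4.03% of all genes). The median was 0.02 in the lists and over all genes. Higher were ITGB1 (0.98, adjusted p = 0.000888), MET, a receptor kinase that partners B plexins (0.98, adjusted p = 0.00163), and EPHB4 (0.65, adjusted p = 0.00874). Lower were DPYSL2 and FARP1 (-0.66, adjusted p = 0.00386). On a second FARP1 probe set WT PR-A cells with vehicle averaged 8.58 and T47D-Y cells 8.90, less than 1.5-fold apart. The EPHB4 call was lost without WT PR-A vehicle replicate 2 (0.60) or T47D-Y replicate 1 (0.55).

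In PR-A K388R against T47D-Y cells 3 were higher and 3 lower (3.90% each, beside 1.35% and 2.48% of all genes; median 0.10, beside 0.05 over all genes). EPHA1 (1.08, adjusted p = 0.00343), CDK5 (0.74, adjusted p = 0.00719) and MST1R, another receptor kinase that partners B plexins (0.74, adjusted p = 0.0221), were the higher, and PLXNA3, DPYSL2 and SRGAP2, a relative of SRGAP1 (-0.60, adjusted p = 0.0391), the lower. The call of CDK5 did not hold without K388R vehicle replicate 1 (0.67) or T47D-Y replicate 1 (0.72) or 2 (0.77). That of MST1R was lost without any 1 vehicle array of PR-A K388R or T47D-Y cells (0.68 to 0.79), and that of SRGAP2 without any 1 of the 6 vehicle arrays (-0.62 to -0.58). The comparisons with T47D-Y share its arrays, so their values are given side by side only.

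Over the 10 arrays, 2321 genes with at least 1.5-fold between extreme group means were ranked by Pearson's r with the brighter SEMA3C probe set, 1 probe set each. The most alike were PRKACB, a catalytic subunit of protein kinase A (0.986), PIK3R3, a regulatory subunit of phosphoinositide kinase (0.977), SYNGR2 (0.967), NSF (0.967) and SLC35A1 (0.963). PRKACB averaged 8.16 in WT PR-A cells with R5020, against 8.93 with vehicle, 8.87 in PR-A K388R cells with R5020, against 9.36 with vehicle, and 9.03 in T47D-Y cells. The most opposed were the phosphatase PTPN14 (-0.988), GRHPR (-0.986), TBC1D12 (-0.982), LAD1 (-0.981) and NAP1L4 (-0.979). PTPN14 averaged 7.49 and 6.43 in WT PR-A cells with R5020 and vehicle, 6.57 and 5.85 in PR-A K388R cells with R5020 and vehicle, and 6.38 in T47D-Y cells, the order of the SEMA3C group means reversed. These values describe 10 arrays in 5 groups and were selected as the extremes of 2321.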

How the data were processed

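T47D RNA was hybridized to 10 Affymetrix U133 Plus 2 arrays. Values were deposited as log2 signals of each probe set, after normalization by the authors with Partek Genomics Suite; the method and the background correction are not given in the sources used here. The labels name DMEM with charcoal-stripped serum and PicoPure columns, whereas the methods of the study name MEM and another kit. The table at hand covers a portion of the array. By GEO's platform annotation, 12547 probe sets have 1 gene symbol, 457 several and 3372 none listed; 12528 matched a RefSeq gene. PGR was not analysed here, and 1 SEMA3B probe set shared with MIR6872 was left out. The 10 arrays hold no T47D-Y cells with R5020, so the R5020 responses could not be compared with treated cells that lack the receptor. Arrays carry no counts, so the number of arrays limits the precision.

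A single limma model (limma 3.58.1, R 4.3.3) took the 10 arrays together, with group means and the replicate number as a block (4 residual and 5.62 prior degrees of freedom). For each of 6 comparisons, p-values across the table were adjusted by Benjamini-Hochberg. The block was kept because replicate 2 minus replicate 1 sums to 0 over groups in each probe set (at most 0.0003 in size; 0.228 to 0.255 in the median with 1 group exchanged), so that effect had already been removed and a fit without the block counts 5 residual degrees of freedom where 4 are left. A check of pairing by shared deviations is void for the same reason. The code was tested on simulated data. Named were all member probe sets, neuropilins and plexins, up to 3 called genes of the lists in each direction (by adjusted p, brightest probe set per gene) and the 5 genes most and least like SEMA3C. Members, lists and tests were chosen with earlier results of these data known. Figures were drawn with matplotlib 3.10.9 (Python 3.11.15).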

Additional observations from a re-analysis of the deposited data

Results flagged for a closer look

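For DPYSL2 and SRGAP1 the responses of the PR-A lines to R5020 were called different in the test of the difference itself (PR-A K388R minus WT PR-A). Each call was lost in 5 of 18 other settings, and the lists were chosen with earlier results of these data known. DPYSL2 differed by -1.62 (1.01 in PR-A K388R and 2.63 in WT PR-A cells) and SRGAP1 by -1.54 (-0.05 and 1.49). The DPYSL2 vehicle means differed too, at 8.73 in PR-A K388R and 7.70 in WT PR-A cells, beside 9.74 and 10.33 with R5020. SEMA3C on its brighter probe set stood at 1.07 (-1.27 and -2.34), which is a description only, since the gene was chosen for this fall.

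For SEMA3B, SEMA4D and the brightest PLXNA3 probe set, every R5020-treated array lay on opposite sides of its vehicle arrays in the PR-A lines. How many of all probe sets do so was not counted, so nothing is read from this pattern. Some gaps were narrow, as for SEMA4D in PR-A K388R cells (7.07 and 7.12 with R5020, against 7.13 and 7.15 with vehicle). The difference, given for SEMA3B and SEMA4D as a description that was not tested, was 0.47 for SEMA3B (0.34 in PR-A K388R and -0.14 in WT PR-A cells), -0.45 for SEMA4D (-0.04 and 0.41) and 0.53 for PLXNA3 on its brightest probe set (0.16 and -0.37; adjusted p = 0.182, not called). Groups of 2 arrays are too small for a check of single arrays against their group.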

How the results depend on the processing

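The 9 probe sets were refitted under 18 other settings, 10 of which left out 1 array; where a group kept 1 array, that array is assumed to vary like the others. No called value changed sign. Among 54 values 11 were called, and the call was lost in 41 of 198 settings of these. The 2 SEMA3C probe sets gave 4 and 5 of these calls and SEMA3F gave 2. Over all probe sets, the share called in 1 direction of a comparison ran from 0.391% to 4.72%. The comparisons share arrays and include the R5020 contrasts on which the genes were chosen, so nothing is read from the 11. Of the 43 uncalled values none became called, 42 of their 762 settings changed the sign (of values up to 0.21) and 59 moved by more than the replicate SD. Without the replicate block, the counts of called member probe sets stayed at 3, 2, 1, 2, 0 and 3 for the R5020 responses of the WT and the mutant line, their difference, and the vehicle comparisons PR-A K388R against WT PR-A, WT PR-A against T47D-Y and PR-A K388R against T47D-Y; over all probe sets the difference had 237 higher and 289 lower, against 85 and 156 with the block. Contrasts without moderated variances gave 1, 0, 0, 0, 0 and 0, on few degrees of freedom. At 2-fold, PR-A K388R against WT PR-A kept 1, and with only the arrays compared the difference had 0. Leaving out 1 array gave 2 to 3, 1 to 2, 0 to 1, 1 to 2, 0 to 0 and 1 to 3. Over all probe sets, the counts of the 6 comparisons ran from 0 to 245 without moderation, and the intensity trend gave 189 higher and 246 lower for the difference. Centering arrays on their medians moved the PR-A K388R against T47D-Y calls to 138 higher and 553 lower (20% higher), against 174 and 376 (31.6%). With the most variable probe set per gene, counts of the lists stayed within 1 gene. PLXNC1, SEMA3A, SEMA3B and NRP1 are limited by signal near background. The cause of these changes was not tested.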

Other observations

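The SEMA3B probe set left out because it is shared with MIR6872 lay between 5.58 and 5.93 on the 10 arrays, with 1.21-fold between its extreme group means.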
